A study of Mus musculus with 10 samples.

Results

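The chains of the G-CSF, GM-CSF, interleukin and interferon gamma receptors were read by 20 of the 45101 probe sets on the array. These are all the probe sets that the platform's annotation gives to Csf3r, Csf2ra, Csf2rb, Csf2rb2, Il3ra, Il6ra, Il6st, Il4ra, Ifngr1 or Ifngr2, so each of these 10 genes, of 18193 named on the array, had at least 1. All 20 passed the filter on dim signals, a signal above 369.318 on at least 3 of the 10 arrays. The arrays, Affymetrix Mouse Genome 430 2.0, measured RNA from mouse bone marrow progenitors that an oncogene had made immortal. Every culture was derived in medium with stem cell factor and without GM-CSF. The groups were NUP98-NSD1 (3 clones), MLL-ENL (1 array), HoxA9+Meis1 (3 clones) and HoxA9 alone (3 clones). NUP98-NSD1 is a nucleoporin joined to a histone methyltransferase, and MLL-ENL is MLL joined to an elongation factor. HoxA9+Meis1 is a homeobox factor together with its homeobox cofactor. The labels do not say that the clones came from separate animals, so p-values measure the spread between these cultures, which may be technical. Neither strain and age nor the promoter of the transgenes is stated in the labels.

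The arrays fell into sets by their hybridization controls, 18 probe sets for transcripts added to every sample. These controls averaged 14.00 to 14.12 on the log2 scale for NUP98-NSD1 and MLL-ENL and 13.17 to 13.41 for HoxA9+Meis1 and HoxA9, so this set and the oncogene cannot be told apart in comparisons that cross them. HoxA9+Meis1 against HoxA9 lies within a set, with a control difference of 0, and so does MLL-ENL against NUP98-NSD1, with -0.06. In NUP98-NSD1 against either other group of 3 clones it was 0.78. Genes with at least 2 called probe sets had calls in opposite directions in 21.7% of cases for NUP98-NSD1 against HoxA9+Meis1 and 21.3% against HoxA9, but in 0.289% for HoxA9+Meis1 against HoxA9. Median signals per array ran between 440.3 and 660.3, and the number of arrays limits the precision. Kit, the stem cell factor receptor that marks progenitors, read 14242 to 29049 on the 10 arrays. The T cell markers Cd3g and Cd4 were below the filter level on all of them. Other T cell markers were not, with Cd8a at 897 to 2197 and Bcl11b at 129 to 821.

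Most of these chains belong to the type I cytokine receptors, which have no kinase of their own and signal through JAK kinases and STAT transcription factors. Csf3r forms the G-CSF receptor by pairing with itself and drives neutrophil production. The GM-CSF, IL-3 and IL-5 receptors each have their own alpha chain, Csf2ra, Il3ra or Il5ra, and share the beta chain Csf2rb, while mice also carry Csf2rb2, a close copy of it that serves IL-3. Il6ra binds IL-6 and then engages Il6st, the chain gp130 that many cytokines of the IL-6 family share. Il4ra takes part in the IL-4 and IL-13 receptors. Ifngr1 and Ifngr2 are type II receptor chains that together bind and transmit interferon gamma, a signal that activates myeloid cells.

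The promoter windows of Csf3r, Csf2ra and Ifngr1 are shown because these are the chains that fell in HoxA9+Meis1 relative to HoxA9 with every probe set they have on the array. Each run is the 250 bases before the annotated start of transcription, 5′ to 3′ on the gene's strand, taken from RefSeq in build GRCm38.p6. Capitals mark GAGGAA, a core that the myeloid factor PU.1 binds, and GCAAT, a half-site of C/EBP proteins, each searched on both strands (TTCCTC and ATTGC are the reverse complements).
Csf3r, chr4:126024409-126024658, plus strand: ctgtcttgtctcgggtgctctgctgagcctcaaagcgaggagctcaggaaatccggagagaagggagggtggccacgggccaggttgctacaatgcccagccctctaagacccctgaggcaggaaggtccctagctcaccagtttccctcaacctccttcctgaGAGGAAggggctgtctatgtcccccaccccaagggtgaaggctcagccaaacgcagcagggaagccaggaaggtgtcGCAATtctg
Csf2ra, chr19:61228419-61228668, minus strand: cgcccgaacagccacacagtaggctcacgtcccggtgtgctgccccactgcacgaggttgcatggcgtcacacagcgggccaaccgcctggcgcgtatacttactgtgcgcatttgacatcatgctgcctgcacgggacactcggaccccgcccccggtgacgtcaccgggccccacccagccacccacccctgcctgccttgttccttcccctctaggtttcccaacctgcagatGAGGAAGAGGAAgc
Ifngr1, chr10:19591699-19591948, plus strand: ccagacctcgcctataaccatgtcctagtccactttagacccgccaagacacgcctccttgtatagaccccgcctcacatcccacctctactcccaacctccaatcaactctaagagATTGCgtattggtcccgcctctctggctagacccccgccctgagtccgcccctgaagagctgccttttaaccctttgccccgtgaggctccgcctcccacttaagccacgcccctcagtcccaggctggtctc
Positions are counted back from the start of transcription, whose first upstream base is -1. The Csf3r window held GAGGAA at -86 and GCAAT at -9. The Csf2ra window held GAGGAA at -14 and again at -8, and the Ifngr1 window held GCAAT on the other strand at -133. In the table of promoters 9 of the 10 genes were matched. GAGGAA was in 4 of the 9 windows and in 23.3% of 32851 promoter windows of this length, GCAAT in 5 of the 9 and in 23.1%. The STAT motif TTCNNNGAA was in 1 of the 9, Csf2rb2, and in 7.02% of all. A match of letters is a description of the window and not a site.

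Signals below are in the deposited linear units, and differences are of log2(signal + 32), first named group minus second, called at an adjusted p under 0.05 (limma, Benjamini-Hochberg over all 30945 probe sets kept). In NUP98-NSD1 against HoxA9+Meis1, 15 of the 20 receptor probe sets were called, 8 higher and 7 lower, where 30.9% of all probe sets were called (13.8% higher and 17.2% lower). In NUP98-NSD1 against HoxA9, 11 were called, 7 higher and 4 lower, with 29% of all (12.3% higher and 16.7% lower). In HoxA9+Meis1 against HoxA9, 6 were called, 2 higher and 4 lower, with 6.89% of all (3.4% higher and 3.49% lower). That last count was 3, all of them lower, without HoxA9 clone 2 and also without HoxA9 clone 3. Groups did not overlap for 15, 11 and 9 of the 20 probe sets in these comparisons, in the order given, against 45%, 43.8% and 28.6% of all probe sets. The median difference of the 20 was 0.14, against -0.13 over all probe sets, in NUP98-NSD1 against HoxA9+Meis1. It was -0.30 against -0.14 in NUP98-NSD1 against HoxA9, and 0.16 against -0.02 in HoxA9+Meis1 against HoxA9. The comparisons of NUP98-NSD1 share its clones, and each other pair of comparisons also shares a group.

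**Figure D1:**
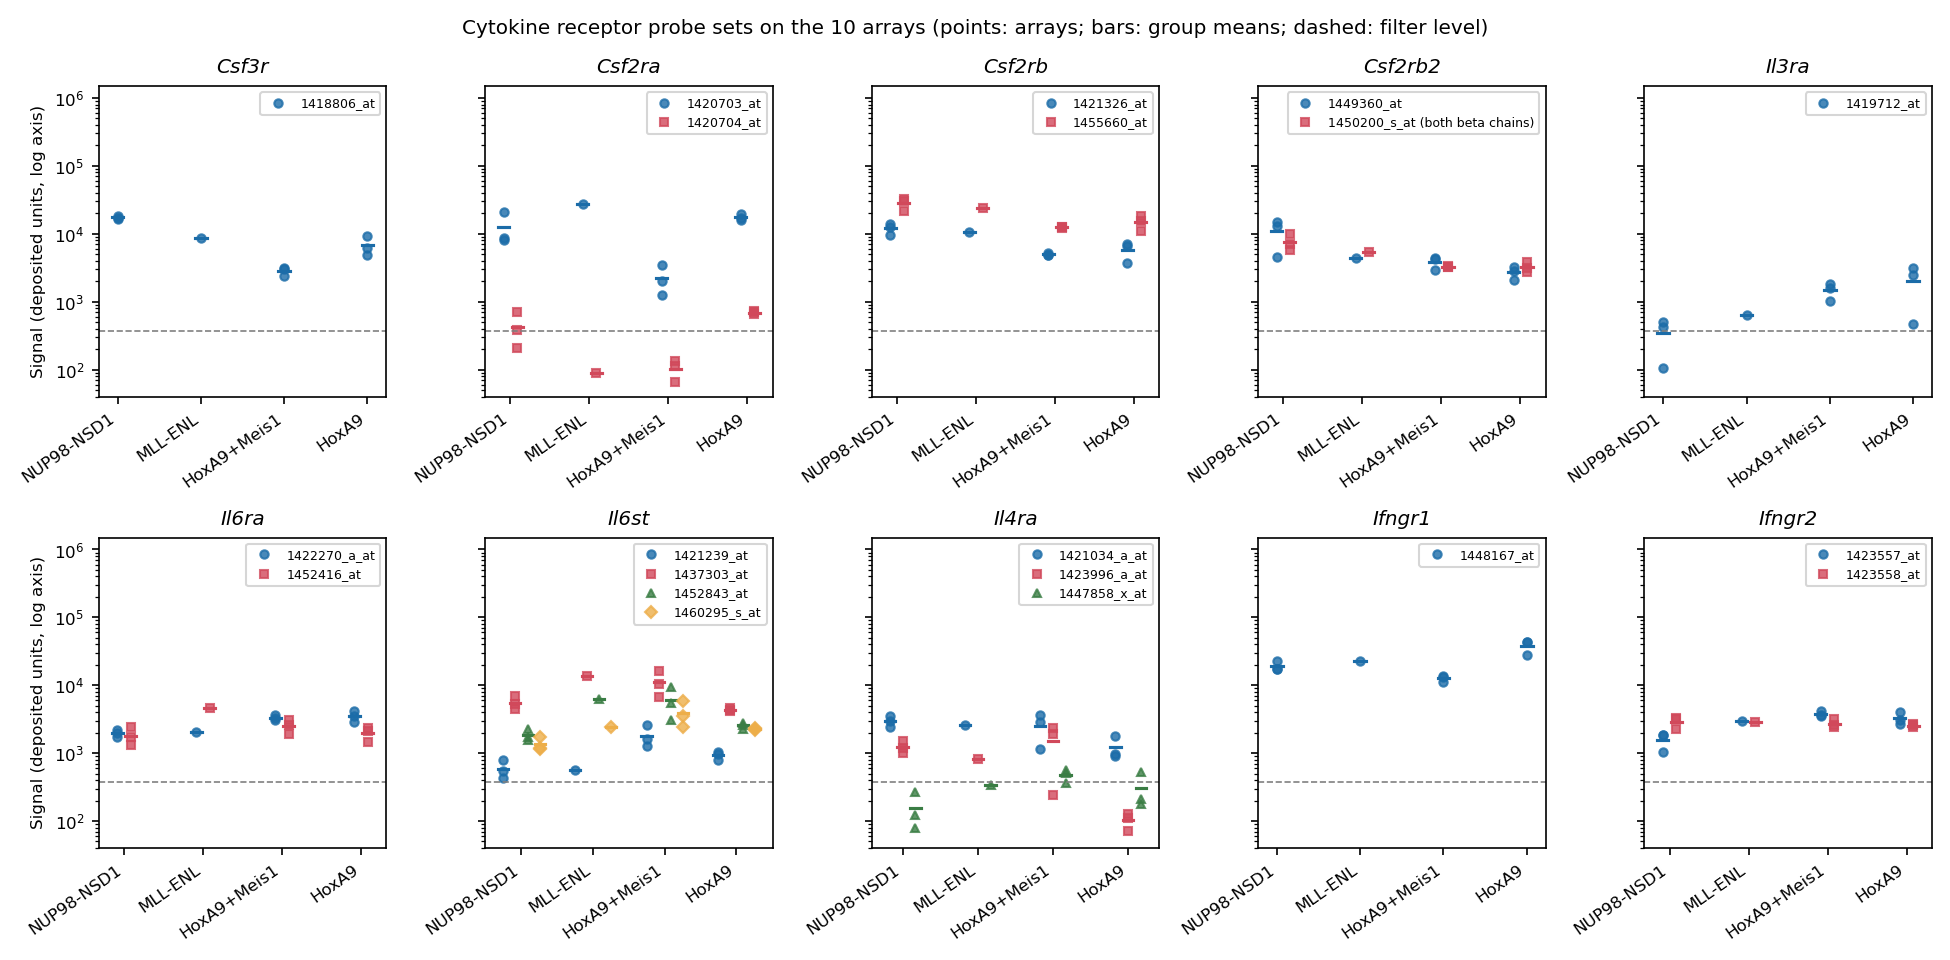
Signal of each receptor probe set on the 10 arrays, by oncogene group, on a log axis in deposited units. Points are arrays, bars are group means and the dashed line is the filter level of 369.318. The Csf3r points of NUP98-NSD1, between 16686 and 18249, stand above those of all other groups, and those of HoxA9+Meis1, between 2385 and 3172, below all others.

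Csf3r, the G-CSF receptor, was highest in NUP98-NSD1 and lowest in HoxA9+Meis1, with no overlap between the 3 replicated groups. Its only probe set, 1418806_at, read 17184, 16686 and 18249 in the NUP98-NSD1 clones, 8547 in the MLL-ENL culture, 3172, 2385 and 3062 in the HoxA9+Meis1 clones, and 4865, 6149.6 and 9302 in the HoxA9 clones. The MLL-ENL value lay inside the HoxA9 range. Group means were 17373 ± 799 in NUP98-NSD1, 2873 ± 426 in HoxA9+Meis1 and 6772 ± 2283 in HoxA9 (SD, n = 3 each). Csf3r rose 6.03-fold in NUP98-NSD1 relative to HoxA9+Meis1 (log2 difference 2.59, SE 0.20, limma adjusted p = 3.59e-05). It rose 2.65-fold relative to HoxA9 (1.41, SE 0.20, adjusted p = 0.00085). It fell by 1.19 on the log2 scale in HoxA9+Meis1 relative to HoxA9, within 1 set of arrays (SE 0.20, adjusted p = 0.00629). These 3 calls held under all 22 alternatives of processing and of clones left out. In bulk RNA such as this, fewer cells of a type and less RNA per cell cannot be told apart.

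Neutrophil granule genes differed between the groups too. The summed signal of the 13 of 14 listed granule genes on the array was 1127015 to 1898012 in NUP98-NSD1, 809364 in MLL-ENL, 389932 to 479539 in HoxA9+Meis1 and 526431 to 563204 in HoxA9. Elane, Prtn3, Mpo and Ctsg made up most of the sums outside NUP98-NSD1, and read 198245, 159315, 221677 and 211001 in MLL-ENL. Ngp read 887 in MLL-ENL, below every other culture, while Mmp8 read 4034 there, above every HoxA9 clone. None of the 13 was below the filter level on all 10 arrays. Camp, the cathelicidin gene, was below it on every array outside NUP98-NSD1 and so was kept only through that group. In MLL-ENL, Ltf, Mmp9 and S100a9 were below the filter level too, at 23.2, 87.4 and 91.4. Of these genes, 11 were higher and 0 lower in NUP98-NSD1 against HoxA9+Meis1, where 32.6% of all genes were called, and 12 were higher and 0 lower against HoxA9, with 31.4% of all. Where Csf3r fell, in HoxA9+Meis1 against HoxA9, 2 were higher and 1 was lower, with 8.66% of all genes called, and the list's median difference was 0.10. Those that rose were the collagenase Mmp8 and S100a9, a calcium-binding protein of neutrophils. Mmp8 read 2259.7 to 10186 in HoxA9+Meis1 and 377 to 831 in HoxA9, and S100a9 read 1708 to 36682 in HoxA9+Meis1 and 69.2 to 793 in HoxA9. The 1 that fell was Elane, neutrophil elastase, which read 13902 to 25137 in HoxA9+Meis1 and 106958 to 116367 in HoxA9. The part of these cells in the Csf3r result was not tested.

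Csf2ra, the GM-CSF receptor's alpha chain, was lowest in HoxA9+Meis1 by its bright probe set. That probe set, 1420703_at, read 8704, 8063 and 20971 in NUP98-NSD1, 27387 in MLL-ENL, 1269, 3424 and 1981 in HoxA9+Meis1, and 16953, 15957 and 19735 in HoxA9. Every HoxA9+Meis1 clone lay below every other culture, and NUP98-NSD1 clone 3 lay above all HoxA9 clones while clones 1 and 2 lay below them. Group means were 12579 ± 7274 in NUP98-NSD1, 2225 ± 1098 in HoxA9+Meis1 and 17548 ± 1958 in HoxA9 (SD, n = 3 each). Csf2ra fell by 3.07 in HoxA9+Meis1 relative to HoxA9, an 8.40-fold change (SE 0.38, limma adjusted p = 0.000995). It rose by 2.45 in NUP98-NSD1 relative to HoxA9+Meis1 (SE 0.38, adjusted p = 0.00113). NUP98-NSD1 minus HoxA9 was -0.62, with a 95% interval of -1.46 to 0.23, and was not called (adjusted p = 0.248). Without NUP98-NSD1 clone 3 it was called, at -1.06 (adjusted p = 0.0333).

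The second Csf2ra probe set, 1420704_at, was dim. It read 204, 384 and 698 in NUP98-NSD1, 88.4 in MLL-ENL, 112, 65.1 and 132 in HoxA9+Meis1, and 692, 661 and 720.3 in HoxA9. All HoxA9+Meis1 clones and the MLL-ENL culture were below the filter level. With that level in place of the dim group, Csf2ra by this probe set was at least 1.80-fold lower in HoxA9+Meis1 than in HoxA9 (adjusted p = 0.0136). By the group mean it was 1.04-fold above that level in NUP98-NSD1 (adjusted p = 0.0274 against HoxA9+Meis1). That is not a bound for each clone, since NUP98-NSD1 clone 1 was itself below the level. The first of these calls was lost without HoxA9 clone 2 or 3 or HoxA9+Meis1 clone 2, and the second without HoxA9+Meis1 clone 1 or 2 or NUP98-NSD1 clone 2 or 3. In MLL-ENL the Csf2ra probe sets disagreed, since the bright one had its highest value there and the dim one a value among the lowest.

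Csf2rb, the beta chain shared by the GM-CSF, IL-3 and IL-5 receptors, was higher in every NUP98-NSD1 clone than in any HoxA9+Meis1 or HoxA9 clone. Its brighter probe set, 1455660_at, read 32003, 30646 and 21795 in NUP98-NSD1, 23552 in MLL-ENL, 12212, 12631 and 12354 in HoxA9+Meis1, and 11021, 15581 and 18326 in HoxA9. The HoxA9+Meis1 clones were close to each other and lay within the range of the HoxA9 clones. Csf2rb rose 2.24-fold in NUP98-NSD1 relative to HoxA9+Meis1 (1.16, SE 0.18, limma adjusted p = 0.00124) and 1.89-fold relative to HoxA9 (0.92, SE 0.18, adjusted p = 0.00471). HoxA9+Meis1 minus HoxA9 was -0.24 (95% interval -0.65 to 0.17, adjusted p = 0.581). The other Csf2rb probe set, 1421326_at, gave differences of 1.26, 1.09 and -0.17 in the same comparisons, and the first 2 were called. The 4 calls held under every alternative in which the probe set was measured.

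Csf2rb2, the close copy of the beta chain, read 14684, 13176 and 4553 in NUP98-NSD1 by 1449360_at, 4359 in MLL-ENL, 4191, 4377 and 2875 in HoxA9+Meis1, and 2084, 2784 and 3284 in HoxA9. NUP98-NSD1 clone 3 stood well below the other two clones of its group and just above the highest HoxA9+Meis1 clone. Csf2rb2 rose by 1.83 in NUP98-NSD1 relative to HoxA9 (SE 0.38, limma adjusted p = 0.00576) and by 1.35 relative to HoxA9+Meis1 (SE 0.38, adjusted p = 0.0224). The second call was lost without HoxA9+Meis1 clone 3, NUP98-NSD1 clone 1 or NUP98-NSD1 clone 2. A probe set that the annotation gives to both beta chains, 1450200_s_at, read 7039, 10001 and 5813 in NUP98-NSD1, 5463 in MLL-ENL, 3236, 3214 and 3292 in HoxA9+Meis1, and 2740.3, 3879 and 3169.5 in HoxA9. It rose by 1.19 in NUP98-NSD1 relative to either group (adjusted p = 0.00141 against HoxA9+Meis1 and 0.00152 against HoxA9). Because the beta chain genes are near-identical, how much each transcript adds to any of these 4 probe sets is uncertain.

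Il3ra, the IL-3 receptor's alpha chain, differed in the opposite direction from the beta chains. Its probe set 1419712_at read 503, 104 and 419 in NUP98-NSD1, 641 in MLL-ENL, 1029, 1819 and 1589 in HoxA9+Meis1, and 475, 3174 and 2428 in HoxA9. NUP98-NSD1 lay wholly below HoxA9+Meis1, but HoxA9 clone 1 lay inside the NUP98-NSD1 range. Il3ra fell by 2.20 in NUP98-NSD1 relative to HoxA9+Meis1 (SE 0.69, limma adjusted p = 0.0333) and by 2.31 relative to HoxA9 (SE 0.69, adjusted p = 0.0286). Both calls changed when single clones were left out. Without NUP98-NSD1 clone 2 the differences were -1.58 and -1.69 and neither was called (adjusted p = 0.111 and 0.0978). Without HoxA9 clone 1 the difference from HoxA9 was -3.13 (adjusted p = 0.00366). The call against HoxA9 was also lost without HoxA9 clone 2 or 3, and the call against HoxA9+Meis1 without any 1 of its clones.

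**Figure D2:**
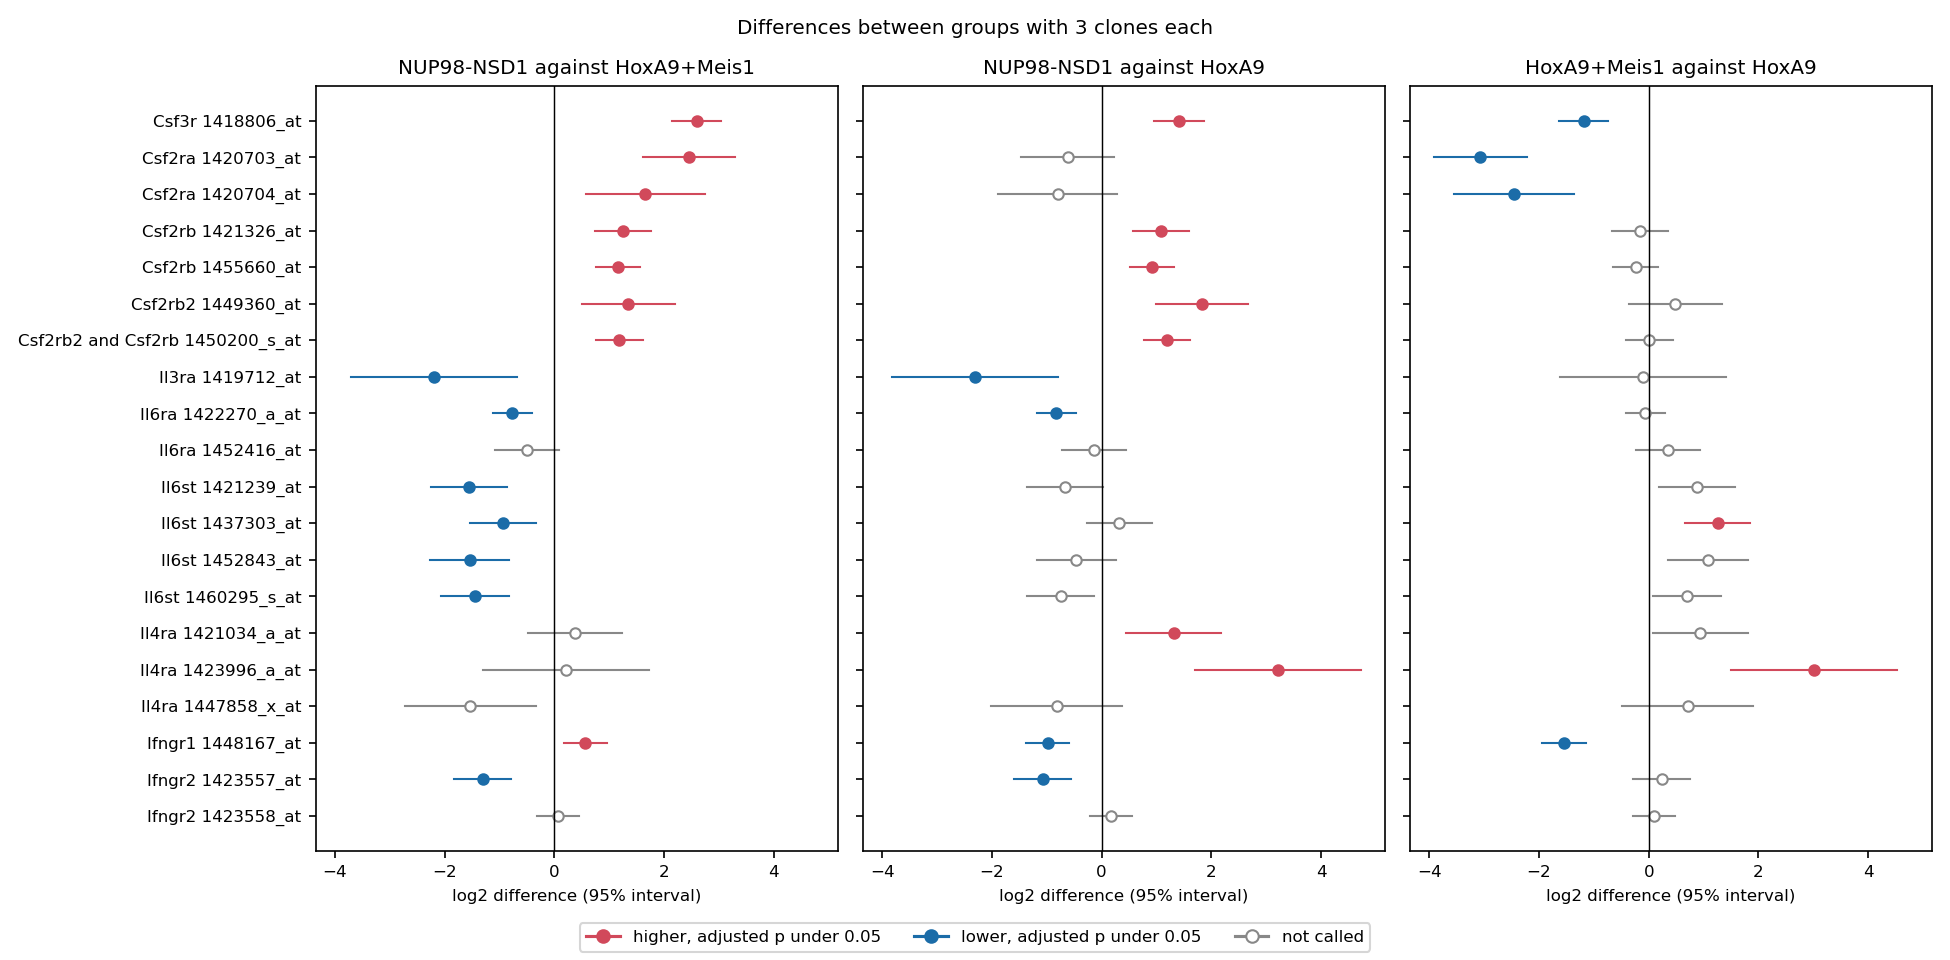
Differences of log2(signal + 32) for the 20 receptor probe sets in the 3 comparisons between groups of 3 clones, with 95% intervals. Filled points passed an adjusted p under 0.05. The beta chain probe sets lie right of 0 in both NUP98-NSD1 comparisons, and Csf3r, both Csf2ra probe sets and Ifngr1 lie left of 0 in HoxA9+Meis1 against HoxA9.

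Il6st, the signal-transducing chain gp130, was highest in HoxA9+Meis1 among the replicated groups by all 4 of its probe sets. The brightest, 1437303_at, read 5269.8, 6899 and 4408 in NUP98-NSD1, 13794 in MLL-ENL, 10371.5, 16228 and 6719 in HoxA9+Meis1, and 4619, 4163 and 4248 in HoxA9. HoxA9+Meis1 clone 3 was just below the highest NUP98-NSD1 clone, and the other two HoxA9+Meis1 clones were above all clones of NUP98-NSD1 and HoxA9. All 4 probe sets fell in NUP98-NSD1 relative to HoxA9+Meis1. The log2 differences were -1.55 for 1421239_at, -0.94 for 1437303_at, -1.54 for 1452843_at and -1.44 for 1460295_s_at (limma adjusted p = 0.00451, 0.0235, 0.00566 and 0.00368). The 1437303_at call was lost without HoxA9+Meis1 clone 1 or 2 or NUP98-NSD1 clone 1 or 3, and the other 3 calls held under every alternative in which the probe set was measured.

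In HoxA9+Meis1 against HoxA9, all 4 Il6st probe sets had every HoxA9+Meis1 clone above every HoxA9 clone, and 1 of them was called. That was 1437303_at, which rose by 1.26 (SE 0.27, limma adjusted p = 0.0182) and lost the call without HoxA9 clone 2, HoxA9 clone 3 or HoxA9+Meis1 clone 1. The others were 0.88 for 1421239_at, 1.08 for 1452843_at and 0.69 for 1460295_s_at (adjusted p = 0.137, 0.0802 and 0.199). The HoxA9 clones were close to each other, at 2198, 2256 and 2347 by 1460295_s_at, while the HoxA9+Meis1 clones read 3511, 5819 and 2435 by it. The 1452843_at difference was called without HoxA9+Meis1 clone 3 (1.49, adjusted p = 0.00647). NUP98-NSD1 against HoxA9 gave no call, with differences between -0.75 and 0.32, though 1460295_s_at was called when the fit left out HoxA9+Meis1 clone 2 or 3.

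Il6ra, which binds IL-6 itself, was measured by probe sets that did not move together. By 1422270_a_at it read 1955, 2169 and 1741 in NUP98-NSD1, 2076 in MLL-ENL, 3091, 3289 and 3627 in HoxA9+Meis1, and 3539, 2883 and 4122 in HoxA9. The NUP98-NSD1 clones lay below all HoxA9+Meis1 and HoxA9 clones, which overlapped each other. This probe set fell by 0.76 in NUP98-NSD1 relative to HoxA9+Meis1 and by 0.83 relative to HoxA9 (SE 0.16 each, limma adjusted p = 0.00579 and 0.0043). By 1452416_at the groups overlapped, and the same differences were -0.49 (95% interval -1.08 to 0.09) and -0.13 (-0.72 to 0.45), neither called. Its highest value was 4641 in MLL-ENL, against 1330.3 to 3085 on the other 9 arrays.

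Il4ra, the chain of the IL-4 and IL-13 receptors, was dim in HoxA9 by 1423996_a_at. It read 1177, 998 and 1497 in NUP98-NSD1, 832 in MLL-ENL, 1888, 2358 and 238 in HoxA9+Meis1, and 126, 71.3 and 112 in HoxA9. HoxA9+Meis1 clone 3 stood far below the other two clones of its group, and all HoxA9 clones were below the filter level. By this probe set Il4ra was at least 3.09-fold higher in NUP98-NSD1 than in HoxA9 (limma adjusted p = 0.00629). By the group mean it was 2.68-fold above the filter level in HoxA9+Meis1 (adjusted p = 0.0237 against HoxA9). That is not a bound for each clone, since HoxA9+Meis1 clone 3 was itself below the level. The fitted HoxA9+Meis1 difference of 3.01 became 4.01 without HoxA9+Meis1 clone 3. The call was lost without HoxA9 clone 2 or 3 or HoxA9+Meis1 clone 1 or 2.

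The brighter Il4ra probe set, 1421034_a_at, was also lowest in HoxA9. It read 3517, 3011 and 2429 in NUP98-NSD1, 2595 in MLL-ENL, 2846, 3595 and 1134 in HoxA9+Meis1, and 920.55, 980.4 and 1759 in HoxA9. It rose by 1.31 in NUP98-NSD1 relative to HoxA9 (SE 0.39, limma adjusted p = 0.0287), a call lost without HoxA9 clone 1 or 2 or NUP98-NSD1 clone 1 or 2. HoxA9+Meis1 minus HoxA9 was 0.94 and not called (adjusted p = 0.214), and 1.43 and called without HoxA9+Meis1 clone 3 (adjusted p = 0.0188). HoxA9+Meis1 clone 3 was low by both probe sets. The dimmest, 1447858_x_at, ran between 79.4 and 569 over all arrays and gave no call, except in NUP98-NSD1 against HoxA9+Meis1 without NUP98-NSD1 clone 2 or with eBayes without a trend.

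Ifngr1, the chain that binds interferon gamma, was highest in HoxA9 and lowest in HoxA9+Meis1. It read 17237, 17231 and 22630.1 in NUP98-NSD1 by 1448167_at, 22568 in MLL-ENL, 13781, 13364 and 11233 in HoxA9+Meis1, and 43759.9, 43281 and 27495 in HoxA9. None of the replicated groups overlapped another. Ifngr1 fell by 1.55 in HoxA9+Meis1 relative to HoxA9, a 2.93-fold change (SE 0.18, limma adjusted p = 0.000655). It fell by 0.98 in NUP98-NSD1 relative to HoxA9 (SE 0.18, adjusted p = 0.00301). Both of these calls held under all 22 alternatives. It rose by 0.57 in NUP98-NSD1 relative to HoxA9+Meis1 (limma adjusted p = 0.0364). This last call was lost without any 1 of the HoxA9+Meis1 clones and without NUP98-NSD1 clone 2 or 3. It was also lost with the arrays at a common median and with eBayes without a trend.

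Ifngr2, the second chain of that receptor, gave different answers by its probe sets. By 1423557_at it read 1032, 1820.2 and 1857 in NUP98-NSD1, 2936 in MLL-ENL, 4204, 3666 and 3561 in HoxA9+Meis1, and 3044, 2708 and 4066 in HoxA9. This probe set fell by 1.31 in NUP98-NSD1 relative to HoxA9+Meis1 and by 1.07 relative to HoxA9 (SE 0.23 each, limma adjusted p = 0.00242 and 0.00733). By 1423558_at the signals ran between 2260.3 and 3266 in NUP98-NSD1, 2436 and 3173 in HoxA9+Meis1, and 2393 and 2672 in HoxA9. The same differences by it were 0.07 (95% interval -0.31 to 0.45) and 0.17 (-0.22 to 0.55), neither called. HoxA9+Meis1 minus HoxA9 was 0.23 by 1423557_at and 0.09 by 1423558_at, neither called.

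MLL-ENL was a single array, and the fit takes its spread from the clones of the replicated groups. Against NUP98-NSD1, 0 of the 20 receptor probe sets were called by limma (3.98% of all were, 1.18% higher and 2.8% lower), and 7 had an unadjusted p under 0.05. The number called by adjusted p rose from 0 to 1 without HoxA9 clone 1 or 3, and to 2 without HoxA9+Meis1 clone 2 or 3 or NUP98-NSD1 clone 3. The nearest to the threshold were Il6st by 1452843_at (1.73, adjusted p = 0.0672), Il6ra by 1452416_at (1.38, adjusted p = 0.0696), Il6st by 1437303_at (1.34, adjusted p = 0.0807) and Csf3r (-1.02, adjusted p = 0.0809). Against HoxA9+Meis1, 6 were called, 5 higher and 1 lower, where 20% of all were called (7.66% higher and 12.4% lower). Csf2ra rose 13.2-fold by its bright probe set (3.72, SE 0.54, adjusted p = 0.00179) and Csf3r 2.98-fold (1.57, SE 0.29, adjusted p = 0.00497), and both calls held under all 19 alternatives.

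Of the other 4 calls of MLL-ENL against HoxA9+Meis1, Csf2rb rose by 1.09 and 0.92, Ifngr1 rose by 0.82 and Il6st by 1421239_at fell by 1.60. The count of 6 fell to 2 without HoxA9+Meis1 clone 1 or clone 2 and to 3 without clone 3. Against HoxA9, 3 were called, 2 higher and 1 lower, where 14.5% of all were called (5.01% higher and 9.46% lower). Il6st by 1437303_at rose by 1.66 (adjusted p = 0.0169), Il6ra by 1452416_at rose by 1.25 (adjusted p = 0.049), and the dim Csf2ra probe set lay at least 1.80-fold below HoxA9 (adjusted p = 0.0328). That count was 1 without HoxA9 clone 1, and 5 without HoxA9+Meis1 clone 3 or NUP98-NSD1 clone 3. The MLL-ENL value lay outside the range of the clones for 13 of the 20 probe sets against NUP98-NSD1, 12 against HoxA9+Meis1 and 16 against HoxA9, where 56.6%, 77.2% and 74.7% of all probe sets did. The hybridization controls differed by 0.72 against HoxA9+Meis1 and against HoxA9.

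**Figure D3:**
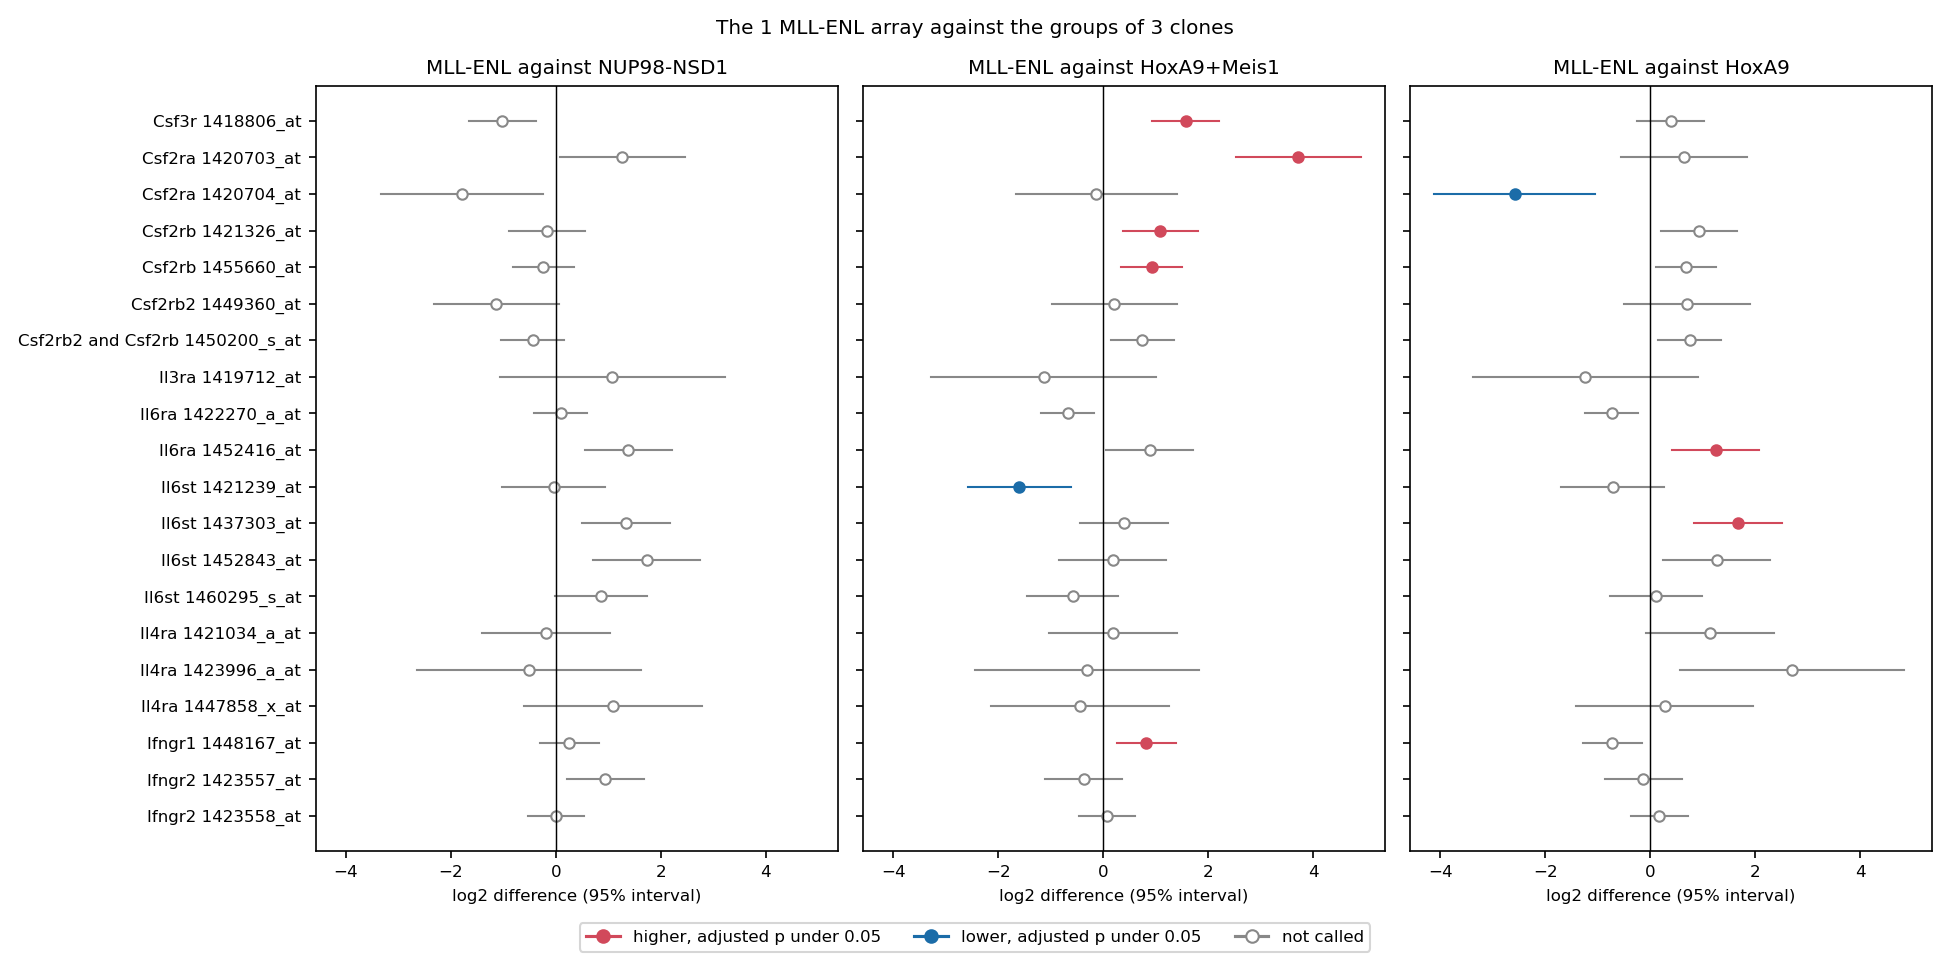
Differences of log2(signal + 32) for the 20 receptor probe sets between the 1 MLL-ENL array and each group of 3 clones, with 95% intervals that take the array to vary like the clones. Filled points passed an adjusted p under 0.05. The bright Csf2ra probe set lies 3.72 above HoxA9+Meis1, while the dim one lies left of 0 in all 3 panels.

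Genes that act around the receptors were described by lists, with 1 probe set per gene over 14233 genes. Of 20 measured signal transducers, 9 were higher and 4 lower in NUP98-NSD1 against HoxA9+Meis1, where 32.6% of all genes were called, and 9 were higher and 4 lower against HoxA9, with 31.4% of all. The median difference of the list was 0.42 and 0.30, against -0.13 and -0.14 over all genes. Stat3, a STAT activated by G-CSF and IL-6, rose by 1.16 relative to HoxA9+Meis1 and by 1.20 relative to HoxA9 (limma adjusted p = 6.9e-05 and 5.62e-05). Its signal by the brightest probe set was 23877 to 28602 in NUP98-NSD1, against 11036 to 11691 in HoxA9+Meis1 and 9743 to 12092 in HoxA9. Of the 4 kept Stat3 probe sets, 2 were called higher and 0 lower in NUP98-NSD1 against HoxA9. Stat4 was at least 4.73-fold higher in NUP98-NSD1 than in HoxA9+Meis1 and rose by 2.29 relative to HoxA9. Pik3cd, a PI3 kinase subunit, fell by 1.25 and 1.36. Pik3r1 fell by 1.10 and 1.33 by its brightest probe set, while other Pik3r1 probe sets were called higher in both comparisons.

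In HoxA9+Meis1 against HoxA9, 1 of the 20 transducers was called, where 8.66% of all genes were. This was Jak3, the kinase that binds the common gamma chain, which rose by 0.52 (adjusted p = 0.0164). Among 19 measured negative regulators, 2 were higher and 0 lower there. Socs2, a suppressor of cytokine signalling that STAT5 induces, rose by 1.92 (adjusted p = 0.0454), and Sh2b3, an adaptor that restrains JAK2 signalling, rose by 0.62 (adjusted p = 0.0355). Of the same 19, 4 were higher and 4 lower in NUP98-NSD1 against HoxA9+Meis1 (32.6% of all genes called), and 5 were higher and 2 lower against HoxA9 (31.4%). Pias1, Socs4 and Socs5 had probe sets called in both directions in each of these comparisons.

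Of 19 measured STAT target genes, 3 were higher and 1 lower in NUP98-NSD1 against HoxA9+Meis1, where 32.6% of all genes were called, and 4 were higher and 0 lower against HoxA9, with 31.4% of all. Both shares are below those over all genes. Of the same genes, 1 was higher and 1 lower in HoxA9+Meis1 against HoxA9, with 8.66% of all. Id2, an inhibitor of helix-loop-helix factors, rose by 2.26 in NUP98-NSD1 relative to HoxA9+Meis1 and by 2.34 relative to HoxA9 (adjusted p = 5.88e-05 and 4.93e-05). Of 7 measured ligands, Il6 was at least 3.18-fold higher in NUP98-NSD1 than in either group (limma adjusted p = 0.00749 against HoxA9+Meis1 and 0.00497 against HoxA9). Il6 passed the filter only through the NUP98-NSD1 clones, so these p-values are not independent of the filter and lend no further support. The Il6 signal was 387 to 2317 in NUP98-NSD1, 11.7 in MLL-ENL, 13.6 to 137 in HoxA9+Meis1 and 28.6 to 73.0 in HoxA9. The other called ligands were Clcf1 and Osm, which fell by 1.19 and 1.04 in NUP98-NSD1 relative to HoxA9+Meis1. By limma 0 ligands were called in HoxA9+Meis1 against HoxA9, and 1 had an unadjusted p under 0.05.

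Of 21 measured partner and related receptor chains, 2 were higher and 4 lower in NUP98-NSD1 against HoxA9+Meis1 (median -0.35, against -0.13 over all genes), where 32.6% of all genes were called. Against HoxA9, 0 were higher and 3 lower (median -0.40, against -0.14), with 31.4% of all called, and both shares are below those over all genes. Of the 21, 2 were higher and 0 lower in HoxA9+Meis1 against HoxA9 (median 0.02, against -0.02), with 8.66% of all called. Il7r, the IL-7 receptor's alpha chain, read 867 to 958 in NUP98-NSD1, 489 in MLL-ENL, 1326 to 7093 in HoxA9+Meis1 and 234 to 640.4 in HoxA9. It rose by 3.08 in HoxA9+Meis1 relative to HoxA9 (SE 0.56, limma adjusted p = 0.00795). Il17ra, a chain of the IL-17 receptor, rose by 0.96 there (adjusted p = 0.0172) and fell by 1.36 in NUP98-NSD1 relative to HoxA9+Meis1 (adjusted p = 0.000887). Ifnar1 and Ifnar2, the chains of the type I interferon receptor, fell in NUP98-NSD1 by 0.71 and 0.68 relative to HoxA9+Meis1 and by 0.60 and 0.66 relative to HoxA9.

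Of 12 measured factors known to bind receptor promoters in myeloid cells, 5 were higher and 1 lower in NUP98-NSD1 against HoxA9+Meis1 (median 0.65, against -0.13 over all genes), where 32.6% of all genes were called. Against HoxA9, 3 were higher and 1 lower (median 0.08, against -0.14), a share near the 31.4% of all genes. Klf4, 1 of the 12, passed the filter only through the NUP98-NSD1 clones, so it lends no support to these counts. It read 1352 to 2532 in NUP98-NSD1, 628 in MLL-ENL, 213 to 353 in HoxA9+Meis1 and 182 to 259 in HoxA9. In HoxA9+Meis1 against HoxA9, 0 were higher and 3 lower (median 0.00, against -0.02), with 8.66% of all called. The 3 that fell were Gfi1, a repressor needed for neutrophil development, by 1.73, and the C/EBP factors Cebpb, by 1.22, and Cebpd, by 1.19 (limma adjusted p = 0.000995, 0.0017 and 0.00713). Cebpb read 10151 to 14152 in HoxA9+Meis1 and 24340 to 31739 in HoxA9, and Gfi1 read 4650 to 7631 in HoxA9+Meis1 and 19139 to 20759 in HoxA9. Gfi1, Cebpb and Cebpd also rose in NUP98-NSD1 relative to HoxA9+Meis1, by 2.15, 1.06 and 1.23. NUP98-NSD1 overlapped HoxA9 for Cebpb (22549 to 32137 in NUP98-NSD1) and for Cebpd (16595 to 26358, against 16431 to 23567 in HoxA9). Gfi1 read 21730 to 38075 in NUP98-NSD1, above the HoxA9 clones. Gata2 averaged 9459 in NUP98-NSD1 and 1413 in HoxA9. Cebpa, the C/EBP factor of early granulocyte development, fell by 0.51 and 0.67 in NUP98-NSD1 relative to HoxA9+Meis1 and HoxA9.

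**Figure D4:**
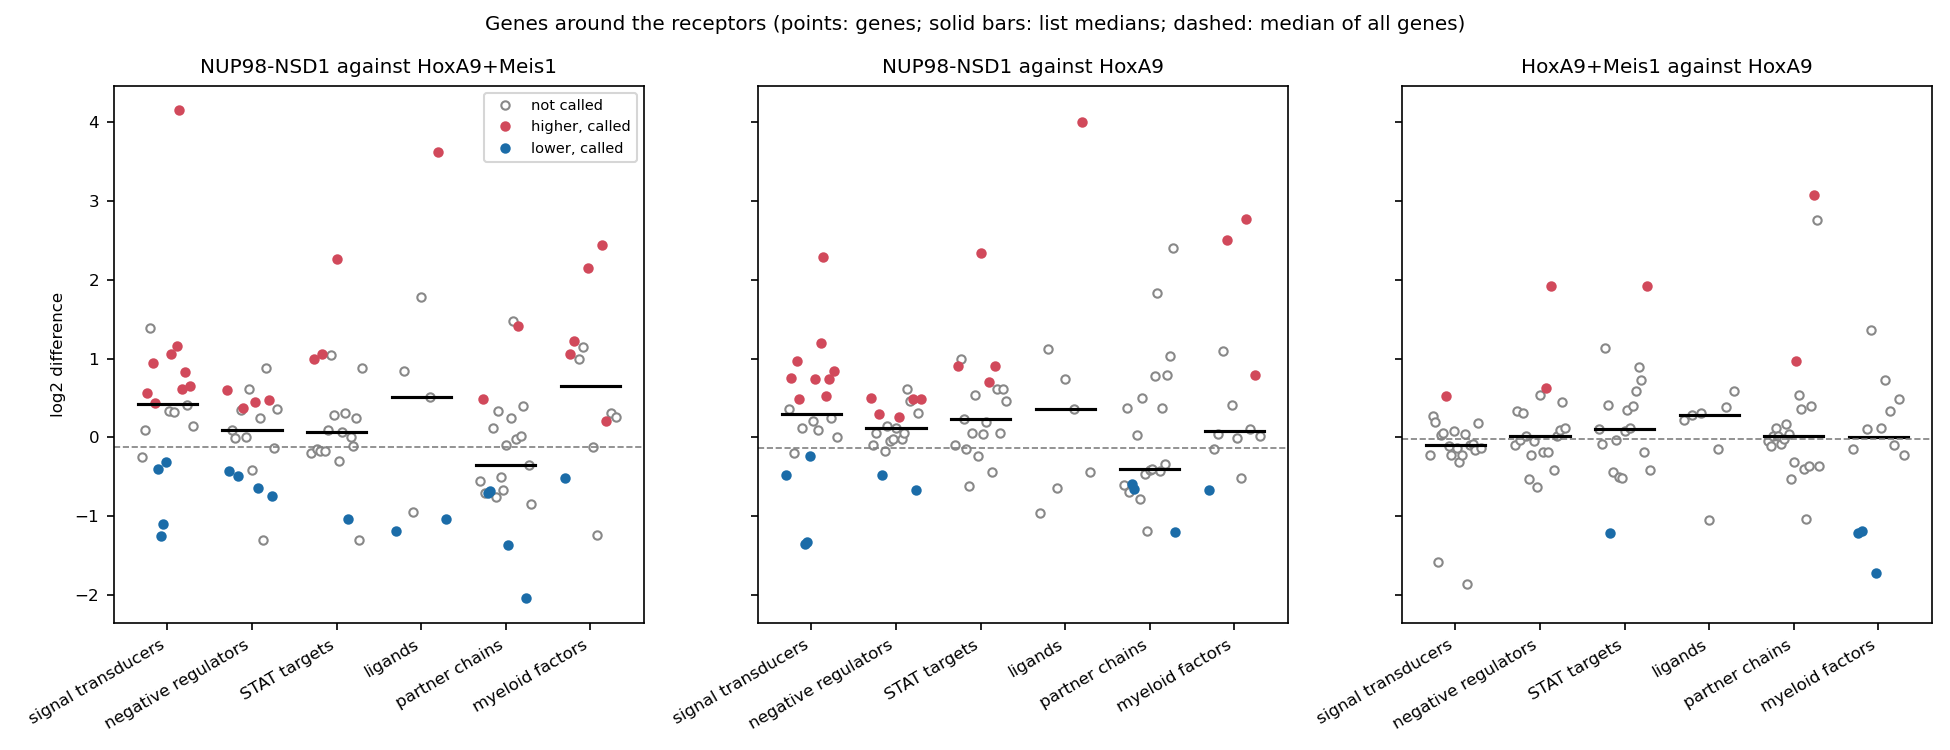
Differences of log2(signal + 32) of genes around the receptors, by list, in the 3 comparisons between groups of 3 clones. Points are genes, filled where called, solid bars are list medians and the dashed line is the median of all genes. In HoxA9+Meis1 against HoxA9 most points are open, and the 3 filled points among the myeloid promoter factors lie between -1.73 and -1.19.

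Markers of other cell types also differed between the groups. Of 10 mast cell and basophil genes on the array, 5 were higher and 0 lower in NUP98-NSD1 against HoxA9+Meis1 (32.6% of all genes called) and 7 were higher and 0 lower against HoxA9 (31.4%). Hdc, 1 of the 10, passed the filter only through the NUP98-NSD1 clones, so it lends no support to these counts. It read 9374 to 30195 in NUP98-NSD1, 309 in MLL-ENL, 75.1 to 214 in HoxA9+Meis1 and 30.9 to 405 in HoxA9. The summed signal of the 10 mast cell and basophil genes was 79556 to 338168 in NUP98-NSD1, 18759 in MLL-ENL, 34406 to 45350.0 in HoxA9+Meis1 and 22273 to 31873 in HoxA9. The 6 eosinophil genes summed to 8364 to 22147 in NUP98-NSD1, 1167 in MLL-ENL, 916 to 1255 in HoxA9+Meis1 and 715 to 1086 in HoxA9, with Ccr3 below the filter level throughout. The 9 dendritic cell genes summed to 5126 to 8851 in NUP98-NSD1, 4062 in MLL-ENL, 29222 to 51260.0 in HoxA9+Meis1 and 4640.0 to 7287 in HoxA9. Flt3 alone gave most of the HoxA9+Meis1 sum, at 23470 to 34997. Itgax, Siglech, Xcr1 and Cd74 also averaged higher in HoxA9+Meis1 than in HoxA9, while Zbtb46, Cd209a and H2-Aa averaged lower. H2-Ab1 was below the filter level throughout. Of the 8 dendritic cell genes that could be tested, 2 were higher in HoxA9+Meis1 against HoxA9 (8.66% of all genes called), Flt3 by 4.81 and Itgax by 3.19 (adjusted p = 1.26e-05 and 0.00481). The part of these cells in the receptor results was not tested.

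The 10 monocyte and macrophage genes summed to 164788 to 249485 in NUP98-NSD1, 261178 in MLL-ENL, 117454 to 181217 in HoxA9+Meis1 and 90924 to 115330.0 in HoxA9. Of these, 2 were higher and 5 lower in NUP98-NSD1 against HoxA9+Meis1 (32.6% of all genes called), 2 were higher and 0 lower against HoxA9 (31.4%), and 3 were higher and 0 lower in HoxA9+Meis1 against HoxA9 (8.66%). Lyz2 alone made up much of the NUP98-NSD1 and MLL-ENL sums. It averaged 104903 in NUP98-NSD1, 103012 in MLL-ENL, 10117 in HoxA9+Meis1 and 20894.5 in HoxA9. Ccr2 and Fcgr1, like Lyz2, averaged lower in HoxA9+Meis1 than in HoxA9. Ly86 averaged 41357 in HoxA9+Meis1, 411 in HoxA9, 4449 in NUP98-NSD1 and 278 in MLL-ENL. Csf1r, Adgre1, Cd68, Cd14, Cx3cr1 and Ms4a6c also averaged higher in HoxA9+Meis1 than in HoxA9. The 7 B cell genes summed to 2788 to 4273 in NUP98-NSD1, 2399 in MLL-ENL, 3489 to 14598 in HoxA9+Meis1 and 2743 to 3875 in HoxA9. The 6 erythroid genes summed to 48738 to 66497 in NUP98-NSD1 and 32135 to 45554 over the other cultures, with Alas2 below the filter level throughout. Most of this was Tfrc, the transferrin receptor, at 46285 to 61854 in NUP98-NSD1. By group mean, Klf1 and Gata1 were also highest in NUP98-NSD1. Hba-a1 was lowest there, and Epor was lower there than in HoxA9+Meis1 or HoxA9. The 6 megakaryocyte genes summed to 4832 to 19537 in NUP98-NSD1 and 3513 to 5669 over the other cultures, and the 6 T cell genes to 1722 to 3772 over all cultures. Of the 17 B cell, T cell, erythroid and megakaryocyte genes that could be tested, 4 were called in NUP98-NSD1 against HoxA9+Meis1 and 4 against HoxA9, shares below those over all genes. By limma 0 of them were called in HoxA9+Meis1 against HoxA9, and 3 had an unadjusted p under 0.05. In MLL-ENL against NUP98-NSD1, HoxA9+Meis1 and HoxA9, 1, 4 and 3 were called, where 4.62%, 21.5% and 14.9% of all genes were. Their part in the receptor results was not tested either.

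The genes with patterns most like those of Csf3r and Csf2ra were ranked by Pearson's r of log2(signal + 32) over the 10 arrays, which share their scaling and their sets. For Csf3r these were Rhou, a small GTPase (0.98), Yipf2 (0.978), Mfsd13a (0.976), Zfp120 (0.975) and Rab27a, a GTPase of secretory granules (0.974). Rhou averaged 5435 in NUP98-NSD1, 2311 in MLL-ENL, 532 in HoxA9+Meis1 and 1521 in HoxA9. For the bright Csf2ra probe set they were Sort1, the sorting receptor sortilin (0.979), Adssl1 (0.971), B4galt6, a galactosyltransferase (0.966), Emilin1 (0.965) and Agps (0.965). Sort1 averaged 12893 in NUP98-NSD1, 19455 in MLL-ENL, 1709 in HoxA9+Meis1 and 16707 in HoxA9.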

How the data were processed

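RNA of 10 cultures was measured on 1 array each. The authors deposited 1 linear intensity (signal) per probe set and array, 45101 probe sets in all. The values show that each array was scaled to a 2%-trimmed mean of 2500.01 to 2500.02, and the software is not stated in the sources used here. No value column was without a sample (0). Groups came from the titles. Probe sets were named through the platform's annotation, 34945 of them with 1 symbol, and probe positions were not used.

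Signals were used as deposited and analysed as log2(signal + 32). Kept were 30945 probe sets with a signal above the 40th percentile of all values (369.318) on at least 3 arrays. The fit was limma 3.58.1 in R 4.3.3, with 4 group means, eBayes with an intensity trend, 6 residual degrees of freedom and two-sided tests, and 95% intervals. Lower bounds on folds put the filter level in place of a group wholly below it and use the other group's mean log2 value. Other folds are of signal + 32. Figures and promoter searches used Python 3.11.15, pandas 2.3.3 and matplotlib 3.10.9. The fit was tested on simulated data.

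The members and lists were chosen with earlier results of these data known. Named besides the members were up to 4 called genes per list and replicated comparison with the largest change, further genes of counted lists, and the 5 genes most like Csf3r and Csf2ra. Genes in lists were represented by their brightest kept probe set. Clone numbers were not used to pair clones in the main fit. Deviations of same-numbered clones correlated between -0.064 and 0.043, and the labels do not say whether such clones share an origin.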

Additional observations from a re-analysis of the deposited data

How the results depend on the processing

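Of the 41 differences called over the 6 comparisons, 24 were called under every alternative that measured them, 17 lost the call under at least 1, and 0 changed sign. Another 22 were called under at least 1 alternative without being called as reported. The alternatives were 13 other settings and 9 clones left out in turn. The cause of each change below was not tested, except that 1 probe set per gene leaves 10 in place of 20. With it, the receptor count was 7 for NUP98-NSD1 against HoxA9, 8 for NUP98-NSD1 against HoxA9+Meis1 and 1 for MLL-ENL against HoxA9. With arrays at a common median it was 3 for MLL-ENL against NUP98-NSD1 and 8 against HoxA9. Quantile normalization gave 1 for MLL-ENL against HoxA9 and 2 against HoxA9+Meis1, cyclic loess gave 2 for MLL-ENL against HoxA9+Meis1, and eBayes without a trend gave 1 against HoxA9 and 3 against HoxA9+Meis1. Leaving out 1 clone gave counts of 9 to 12 for NUP98-NSD1 against HoxA9, 11 to 15 against HoxA9+Meis1, 3 to 8 for HoxA9+Meis1 against HoxA9, and 0 to 2, 1 to 5 and 2 to 8 for MLL-ENL against NUP98-NSD1, HoxA9 and HoxA9+Meis1. With the clone number as a replicate block, the 3 replicated comparisons had 12, 15 and 7 calls (NUP98-NSD1 against HoxA9, NUP98-NSD1 against HoxA9+Meis1, HoxA9+Meis1 against HoxA9).

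Over all probe sets, the common median moved the median difference to 0.05 (from -0.14) for NUP98-NSD1 against HoxA9, 0.03 (from -0.13) against HoxA9+Meis1, and 0.22, 0.28 and 0.24 for MLL-ENL against NUP98-NSD1, HoxA9 and HoxA9+Meis1. The higher share of calls was then 64.4%, 61.1%, 40.2%, 74.3% and 72%, against 42.5%, 44.5%, 29.7%, 34.6% and 38.2% as reported. With cyclic loess it was 52.8% for NUP98-NSD1 against HoxA9 and 44.8% for MLL-ENL against HoxA9. All calls of HoxA9+Meis1 against HoxA9 numbered 2131, but 1245 with the common median, 1005 without a trend and 1132 to 1398 without HoxA9 clone 2 or 3 or HoxA9+Meis1 clone 1 or 2. For MLL-ENL against NUP98-NSD1 they numbered 1231, but 734 with the common median, 676 without NUP98-NSD1 clone 2 and 2872 without clone 3. For MLL-ENL against HoxA9 they numbered 4477, but 2632 with quantile normalization, and 2980.0 and 2918 without HoxA9 clone 2 and clone 3. Probe sets near the filter level limit what the dim Csf2ra, Il3ra and Il4ra signals can show.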
